A study of Mus musculus with 12 samples.

Results

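The 9 genes described here encode the enzymes of the pentose phosphate pathway and 2 further cytosolic sources of NADPH. They are G6pdx, Pgls, Pgd, Rpia, Rpe, Tkt and Taldo1 for the pathway, and Me1 and Idh1 for malic enzyme and isocitrate dehydrogenase. They were chosen by name from the 24318 genes of the deposited table, with earlier results of these data known. All 9 were found in it, and all 9 passed the filter on low counts that left 12469 genes to test. The RNA came from immortalized embryonic fibroblasts of the mouse, in 4 groups of 3 libraries. The groups are T-N2G cells with DEM, T-N2G cells with vehicle, mock cells with DEM and mock cells with vehicle. All 4 groups share the genotype MafF-/-::MafG-/-::MafK-/- (F0G0K0), so none of them has the 3 small Maf genes intact. T-N2G is an Nrf2-MafG heterodimer made as a single tethered protein, and T-N2G cells are F0G0K0 fibroblasts that express it. DEM, diethyl maleate, is an electrophile that reacts with glutathione, and it was given at 100 µM for 12 h. The labels give neither the promoter or vector that drives T-N2G nor whether either population is 1 clone, and they leave it unsaid if the replicates are separate cultures. The p-values therefore measure only the spread between these libraries, which may be technical.

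Nrf2 is a transcription factor that binds DNA as a pair with a small Maf protein, at sequences called antioxidant response elements, and it turns on genes against oxidative and electrophilic stress. NADPH is the electron donor with which cells regenerate reduced glutathione and thioredoxin. The oxidative branch of the pentose phosphate pathway (G6pdx, Pgls, Pgd) makes NADPH while it turns glucose-6-phosphate into a pentose phosphate. The non-oxidative branch (Rpia, Rpe, Tkt, Taldo1) interconverts pentose phosphates and returns them to glycolysis, and Me1 and Idh1 make NADPH from malate and isocitrate in the cytosol.

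Since the members are compared in cells that gain a factor that binds antioxidant response elements, the promoter windows that hold a match to its core are shown first. Each window runs from 250 bases before to 50 bases after an annotated start, 5′ to 3′ on the strand of the gene, and comes from RefSeq on build GRCm38.p6. The deposited table was made on mm9, per the submitters' processing notes, so the coordinates describe these sequences and no count. TGACNNNGC was searched on both strands, and capitals mark the match. It was present in 3 of the 12 windows of the 9 members, in 12.4% of all 32851 windows and in 14.4% of the 12100 windows of tested genes. Me1 has 2 annotated starts, and the window of the second, chr9:86687228-86687527, holds no match. The window of the first, printed below, is chr9:86695865-86696164 (minus strand). Its match TGACTCAGC begins 6 bases upstream of the start and is also the match to TGANTCAGC, a pattern found in 1.19% of all windows. The G6pdx window is chrX:74428831-74429130 (minus strand), with the match on the opposite strand, where it reads TGACTGAGC, and its first printed base 57 bases upstream. Pgd has 2 annotated starts, and the window of the first, chr4:149166656-149166955, holds no match. The second, chr4:149166033-149166332 (minus strand), holds TGACATTGC from base 4, the start being base 1. This match lies after the start, so neither Pgd window holds a match upstream of its start. Just before the second start the printed bases are a run of t and then gtcatttcag, the form in which introns end. That start may therefore be the edge of an internal exon, and its window may be no promoter. Whether the second start is used in these cells was not tested.
Me1: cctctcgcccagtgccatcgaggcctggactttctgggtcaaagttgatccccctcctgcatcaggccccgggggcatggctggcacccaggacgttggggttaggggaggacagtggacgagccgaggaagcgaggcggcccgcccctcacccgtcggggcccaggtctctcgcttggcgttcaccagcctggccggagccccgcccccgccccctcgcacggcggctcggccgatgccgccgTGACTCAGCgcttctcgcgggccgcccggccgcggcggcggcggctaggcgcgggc
G6pdx: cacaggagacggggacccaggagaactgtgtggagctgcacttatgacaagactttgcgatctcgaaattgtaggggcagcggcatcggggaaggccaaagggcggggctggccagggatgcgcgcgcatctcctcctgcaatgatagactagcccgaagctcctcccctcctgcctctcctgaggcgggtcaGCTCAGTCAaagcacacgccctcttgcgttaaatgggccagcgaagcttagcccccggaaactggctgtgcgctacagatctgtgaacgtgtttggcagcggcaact
Pgd, second start: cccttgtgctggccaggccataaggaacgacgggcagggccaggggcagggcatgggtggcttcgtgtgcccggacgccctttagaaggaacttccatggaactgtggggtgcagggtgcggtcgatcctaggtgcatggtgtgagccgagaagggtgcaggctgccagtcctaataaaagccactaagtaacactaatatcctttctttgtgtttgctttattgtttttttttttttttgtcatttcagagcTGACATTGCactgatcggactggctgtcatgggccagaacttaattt

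The related pattern TGAGNNNGC was present in 2 of the 12 member windows and in 17.6% of all windows. The windows that hold it are the first of the 2 for Idh1, 8 bases upstream on the opposite strand, and the window of Taldo1, shown here because that gene differed between the cells. The Taldo1 window is chr7:141391910-141392209 (plus strand), with its match 221 bases upstream. The windows of Pgls, Rpia, Rpe and Tkt hold none of the 3 patterns. A match is a description of letters in a window, and binding was not measured in these libraries.
Taldo1: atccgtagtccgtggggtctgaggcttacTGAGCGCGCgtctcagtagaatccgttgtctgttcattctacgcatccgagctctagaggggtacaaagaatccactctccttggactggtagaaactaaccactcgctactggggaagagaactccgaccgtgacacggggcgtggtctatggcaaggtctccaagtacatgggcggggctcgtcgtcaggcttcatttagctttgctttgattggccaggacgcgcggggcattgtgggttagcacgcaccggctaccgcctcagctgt

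Library totals lay between 18863560 and 23095692 fragments, and 14817 to 15141 genes had a fragment in each library. Levels are given in CPM, fragments scaled to the same effective depth, with the SD over the n = 3 libraries of a group, and levels of different genes are compared in FPKM, which also divides by transcript length. Changes are log2 fold changes of edgeR's quasi-likelihood fit of all 12 libraries, with an approximate standard error, and a change was called when its p, adjusted by Benjamini-Hochberg over the 12469 genes, was under 0.05. The introduced genes checked the labels. Mafg averaged 121 ± 22.2 CPM in T-N2G DEM, 137 ± 27.9 in T-N2G vehicle, 0.877 ± 0.0563 in mock DEM and 0.514 ± 0.0394 in mock vehicle, and Nfe2l2, which encodes Nrf2, averaged 556 ± 94.5, 599 ± 109, 62.4 ± 3.79 and 53.2 ± 5.56 CPM in the same order. Maff and Mafk averaged 1.62 to 4.49 CPM in the 4 groups, which is no check of their deletion, because a count over the whole gene includes any exons that remain. The summed level of 11 fibroblast markers was 13045 to 20456 CPM over the libraries, against at most 26.3 CPM for 5 epithelial, 15.5 for 4 endothelial, 0.378 for 4 skeletal muscle, 18.0 for 4 neural and 0.129 for 3 adipocyte markers, with Adipoq and Plin1 at 0 in all libraries. In bulk RNA, fewer cells with a transcript and less of it per cell cannot be told apart.

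With DEM given to both, T-N2G cells had higher levels than mock cells of 5 of the 9 members and a lower level of none, where 2.61% of tested genes were called higher and 1.11% lower. With the replicate number added to the fit, called the replicate block here, 6 were higher and none lower, where 10.3% and 9.32% of genes were, and the libraries of 5 members did not overlap in the higher direction, as for 10.3% of genes. They were Pgd, Me1, G6pdx, Taldo1 and Tkt, and their folds ran from 5.88 for Pgd to 1.69 for Tkt. Both NADPH-forming dehydrogenases of the oxidative branch, G6pdx and Pgd, are among them, whereas the lactonase gene Pgls that stands between them in the pathway is not. In the non-oxidative branch the 2 carbon-transfer enzymes Tkt and Taldo1 are among them, and the isomerase and epimerase genes Rpia and Rpe are not. The members' median log2 fold change was 0.76, against -0.005 over all tested genes. In all 5 comparisons below, the direction without a call had 0 members in edgeR at an unadjusted p under 0.05 and in DESeq2 as well.

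Pgd encodes 6-phosphogluconate dehydrogenase, the second NADPH-forming step of the oxidative branch. Its level was 498, 440.4 and 582 CPM in T-N2G DEM replicates 1, 2 and 3, against 82.3, 86.0 and 90.1 CPM in mock DEM. All 3 T-N2G libraries lay far above all 3 mock libraries, and the log2 fold change was 2.56 ± 0.13 (adjusted p = 1.62e-07). It ranked 45th of the 12469 genes by log2 fold change, the highest rank among the 9.

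Me1 encodes cytosolic malic enzyme, which makes NADPH while turning malate into pyruvate. It had 175, 188 and 199.8 CPM in the T-N2G DEM libraries, against 58.0, 55.2 and 51.1 CPM in mock DEM. The groups did not overlap, and Me1 was 3.43-fold higher in T-N2G cells (log2 1.78 ± 0.10, adjusted p = 4.95e-07). G6pdx encodes glucose-6-phosphate dehydrogenase, the entry step of the oxidative branch. It had 146, 127 and 179 CPM in T-N2G DEM, against 55.5, 57.7 and 61.6 CPM in mock DEM. The T-N2G libraries all lay above the mock libraries but spread more widely, and the fold was 2.59 (log2 1.37 ± 0.12, adjusted p = 2.29e-05).

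Taldo1 encodes transaldolase, which moves carbon units between sugar phosphates. Its level was 162, 131 and 185 CPM in T-N2G DEM, against 63.9, 67.6 and 67.2 CPM in mock DEM. The groups did not overlap, with a log2 fold change of 1.27 ± 0.11 (2.41-fold, adjusted p = 1.57e-05). Tkt encodes transketolase, which does so with thiamine diphosphate as its cofactor and had the smallest change of the 5. It had 235, 259 and 234 CPM in T-N2G DEM, against 135, 152 and 143 CPM in mock DEM. Its libraries were also fully separated, with a log2 fold change of 0.76 ± 0.06 (adjusted p = 1.50e-05).

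The other 4 members did not pass the test in DEM. Pgls, the 6-phosphogluconolactonase gene, had 26.9, 28.1 and 21.4 CPM in T-N2G DEM, against 29.7, 28.3 and 31.3 CPM in mock DEM. Every T-N2G library lay below every mock library, as for 9.35% of tested genes, but the log2 difference of -0.22 had a 95% interval of -0.46 to 0.01 (adjusted p = 0.352). Rpia, ribose-5-phosphate isomerase, averaged 17.8 ± 1.20 CPM in T-N2G DEM and 15.7 ± 1.75 in mock DEM, with overlapping libraries and a log2 interval of -0.02 to 0.38. Rpe, ribulose-5-phosphate epimerase, averaged 39.4 ± 2.78 CPM in T-N2G DEM and 39.0 ± 5.27 in mock DEM, and its log2 interval was -0.23 to 0.26.

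**Figure D1:**
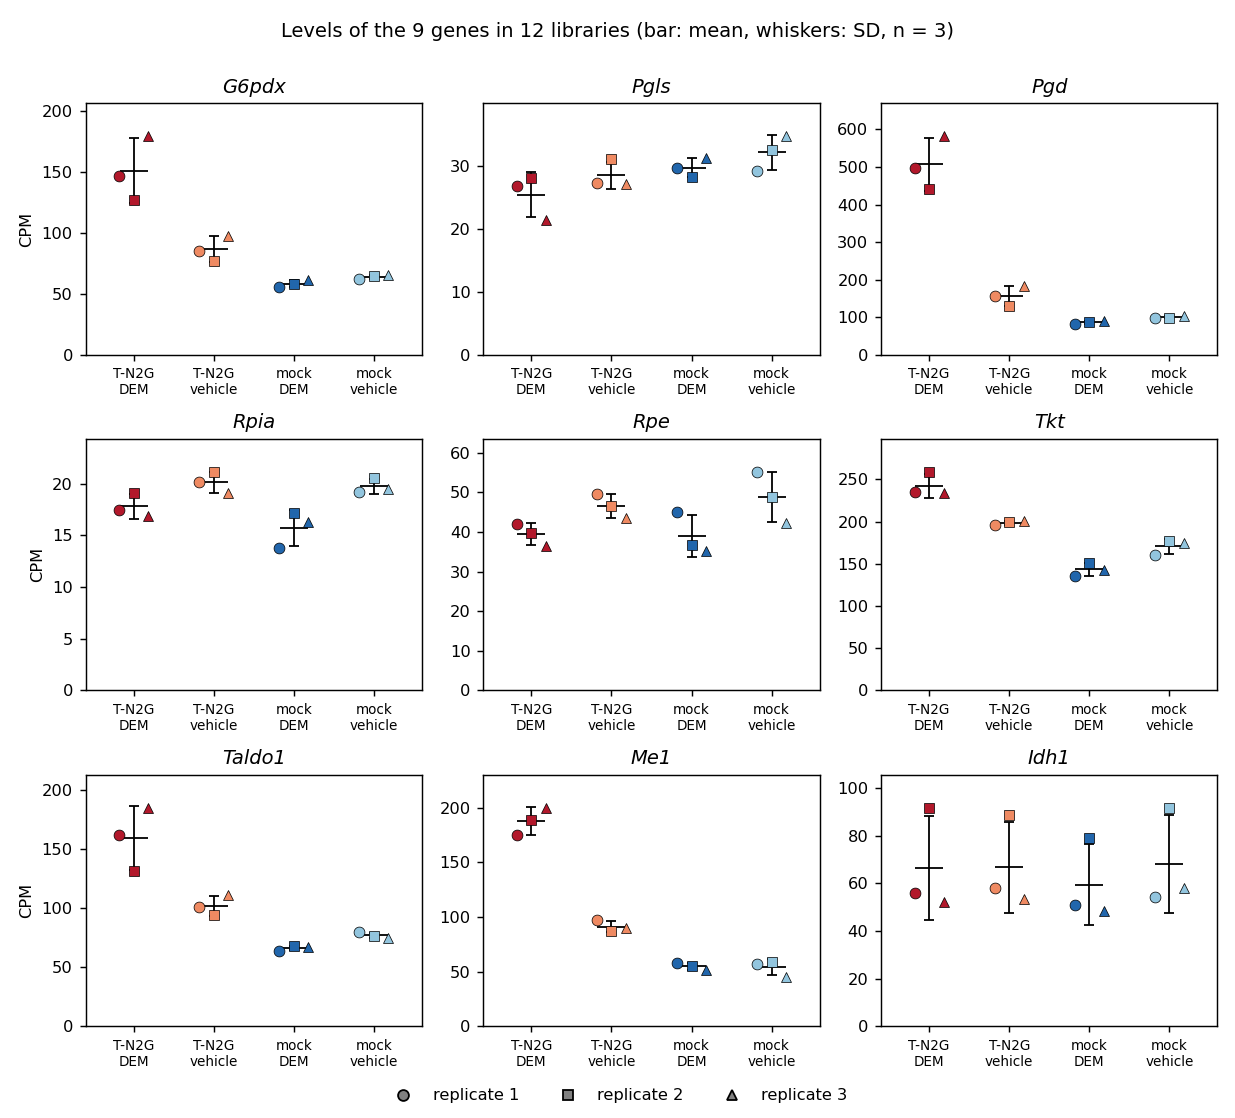
Level of each of the 9 genes in CPM (vertical axes, linear, from 0) in the 12 libraries, with a symbol for each replicate number, a bar for the group mean and whiskers for the SD (n = 3). G6pdx, Pgd, Tkt, Taldo1 and Me1 are higher in all 6 T-N2G libraries than in all 6 mock libraries and highest in the 3 T-N2G DEM libraries, whereas Idh1 is highest in the replicate 2 library of each group.

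Idh1, the cytosolic isocitrate dehydrogenase, varied more with the replicate number than with the group. It had 55.9, 91.6 and 52.2 CPM in T-N2G DEM, 58.2, 88.6 and 53.3 in T-N2G vehicle, 51.0, 78.9 and 48.5 in mock DEM and 54.2, 91.8 and 58.2 in mock vehicle. The 4 replicate 2 libraries stood at 78.9 to 91.8 CPM and the 8 others at 48.5 to 58.2 CPM, whichever the group. Its SD within groups was 0.408 on the log2 scale, and 91.0% of tested genes had a smaller one. Between the cells in DEM its log2 interval ran from -0.46 to 0.78 (adjusted p = 0.873). With the replicate block, the log2 fold change was 0.15 (interval 0.05 to 0.26) and was called higher (adjusted p = 0.0357, and 0.0357 to 0.987 over all alternatives), with T-N2G above mock in 3 of 3 pairs of the same number. Without replicate 2 of T-N2G DEM the unblocked value was -0.14, in a fit where mock DEM kept its own replicate 2 library. That value therefore also carries the difference between replicate numbers. The labels do not say what a replicate number stands for.

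**Figure D2:**
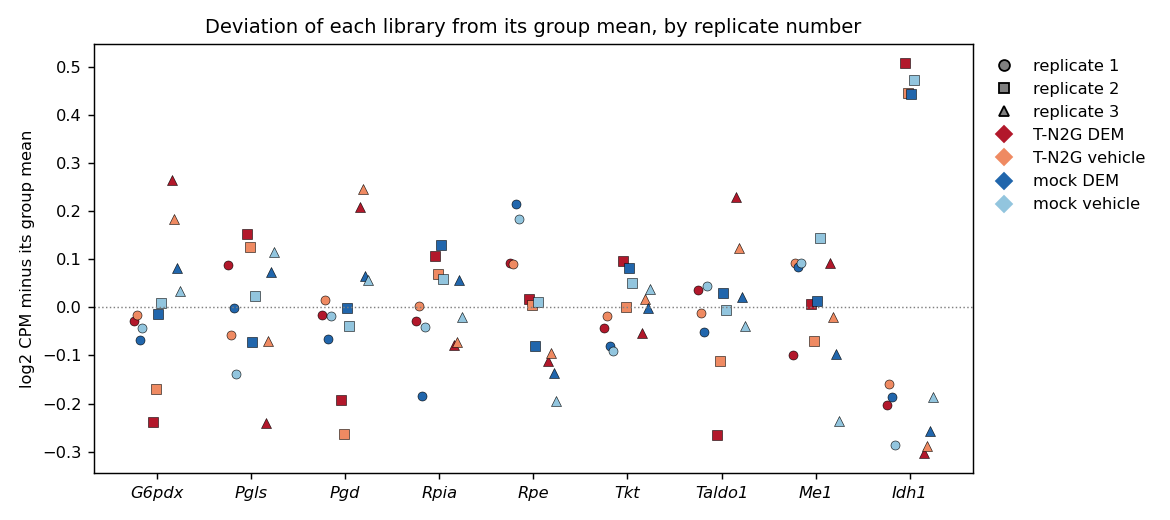
Deviation of each library's log2 CPM from its group mean (vertical axis, log2 units) for the 9 genes, with symbols for replicate numbers and colours for groups. The 4 replicate 2 libraries of Idh1 lie 0.44 to 0.51 above their group means, those of replicate 3 lie above the mean for G6pdx and Pgd, and those of replicate 1 lie above it for Rpe.

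The other members moved less with the replicate number. Rpe lay 0.09 to 0.22 log2 units above the group mean in the 4 replicate 1 libraries and -0.20 to -0.09 from it in the 4 replicate 3 libraries. G6pdx and Pgd lay above the group mean in all 4 replicate 3 libraries, by 0.03 to 0.27 and 0.06 to 0.25. Tkt varied least, with an SD within groups of 0.07 that only 12.9% of tested genes undercut. Replicates 1 and 2 also carry another series of library codes in the labels than replicate 3, and whether the number marks a sequencing batch, a culture or a day was not tested. Within replicates 1 and 2 alone the 5 calls between the cells in DEM held, while the counts of called members were 0 in vehicle, 4 for DEM in T-N2G cells (Tkt was lost), 0 for DEM in mock cells and 1 for the difference of DEM effects (Pgd). With the replicate block added to these libraries, the counts were 5 in vehicle, 6 for DEM in mock cells (all lower) and 5 for the difference. Shares of all tested genes called in these fits of replicates 1 and 2 are not given here, so the counts describe the members alone. With the block in all 12 libraries, 3.06% of genes were called higher in vehicle and 21.9% lower with DEM in mock cells. For the difference 1.82% had a positive call. Replicate 3 alone has 1 library a group and gives no test.

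Without the electrophile, Me1 was the 1 member of 9 called higher in the T-N2G cells, and none was called lower, where 0.305% and 0.00802% of tested genes were. Me1 had 97.1, 86.7 and 89.8 CPM in T-N2G vehicle, against 57.0, 59.1 and 45.4 CPM in mock vehicle. The groups did not overlap, and Me1 was 1.69-fold higher (log2 0.76 ± 0.10, adjusted p = 0.00467). The same 5 genes that were called in DEM had no overlap between the vehicle groups, a separation in the higher direction that 5.11% of tested genes showed and in the lower direction 5.09%. With the replicate block all 5 were called higher and none lower, where 3.06% and 3.24% of genes were.

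Pgd had 156, 129 and 183 CPM in T-N2G vehicle, against 98.3, 96.9 and 103 CPM in mock vehicle. All T-N2G libraries were above the mock libraries, and the log2 fold change of 0.65 ± 0.12 had adjusted p = 0.0547, and 9.65e-06 under the replicate block (up to 0.457 over all alternatives). Leaving out replicate 2 of T-N2G DEM, replicate 3 of T-N2G DEM or replicate 2 of T-N2G vehicle gave adjusted p values of 0.0411, 0.0391 and 0.0113. G6pdx had 85.1, 76.5 and 97.8 CPM in T-N2G vehicle, against 62.0, 64.3 and 65.4 CPM in mock vehicle, with a log2 fold change of 0.44 ± 0.12 (adjusted p = 0.270, with the block 7.74e-04, and up to 0.853 over all alternatives). For Taldo1 and Tkt the log2 fold changes were 0.40 (interval 0.18 to 0.63) and 0.22 (0.09 to 0.36), with adjusted p values of 0.240 and 0.311, both 0.00273 with the block and up to 1.00 over all alternatives. Pgls, Rpia, Rpe and Idh1 lay between -0.17 and 0.03 on the log2 scale in vehicle and were called neither way in either fit.

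In T-N2G cells the same 5 members were higher with DEM and none was lower, where 10.1% of tested genes were called higher and 7.55% lower. The largest rise was that of Pgd, 3.25-fold, with 498, 440.4 and 582 CPM in T-N2G DEM, against 156, 129 and 183 CPM in T-N2G vehicle. The DEM and vehicle libraries were far apart, and the log2 fold change was 1.70 ± 0.12 (adjusted p = 1.07e-05). Me1 rose 2.06-fold (log2 1.04 ± 0.10, adjusted p = 6.06e-05) and G6pdx 1.74-fold (log2 0.80 ± 0.12, adjusted p = 0.00103). Taldo1 rose 1.56-fold (log2 0.65 ± 0.10, adjusted p = 0.00198) and Tkt 1.22-fold (log2 0.29 ± 0.06, adjusted p = 0.00908). In each of the 5, the 3 DEM libraries lay above the 3 vehicle libraries, a separation that 18.2% of tested genes showed. With the replicate block the same 5 were called higher, where 22.8% of genes were.

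Rpe, the epimerase gene, had 41.9, 39.8 and 36.4 CPM in T-N2G DEM, against 49.5, 46.6 and 43.5 CPM in T-N2G vehicle. Every DEM library lay below every vehicle library, as for 15.6% of genes, and the log2 fold change of -0.24 (interval -0.49 to 0.00) had adjusted p = 0.161, and 0.00189 under the replicate block (up to 0.354 over all alternatives), which called it lower, as 22.2% of genes. Rpia and Pgls had log2 fold changes of -0.18 and -0.16 with adjusted p values of 0.212 and 0.324. Idh1 averaged 66.6 ± 21.7 CPM in T-N2G DEM and 66.7 ± 19.2 in T-N2G vehicle, with a log2 interval of -0.62 to 0.62.

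**Figure D3:**
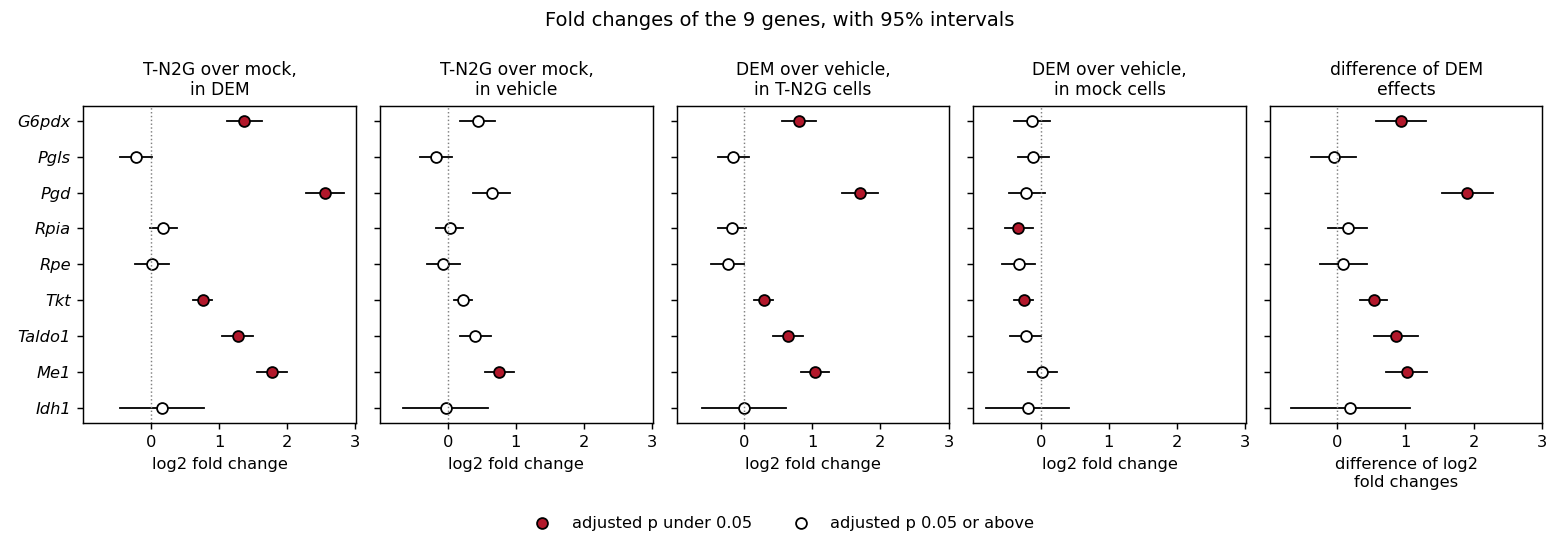
Log2 fold changes of the 9 genes (horizontal axes, with 95% intervals) in the 5 comparisons, from edgeR's fit of all 12 libraries; filled points have an adjusted p under 0.05. Pgd, Me1, G6pdx, Taldo1 and Tkt are filled on the positive side in DEM, in DEM over vehicle in T-N2G cells and in the difference of DEM effects, whereas in mock cells the 2 filled points, Rpia and Tkt, lie below 0.

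In mock cells, which have neither T-N2G nor intact small Maf genes, no member was called higher with DEM and 2 were called lower, where 7.76% of tested genes were called higher and 6.18% lower. Rpia fell by 0.33 on the log2 scale (SE 0.09, adjusted p = 0.0372), with 13.8, 17.2 and 16.3 CPM in mock DEM, against 19.2, 20.6 and 19.5 CPM in mock vehicle. Tkt fell by 0.25 (SE 0.06, adjusted p = 0.0228), with 135, 152 and 143 CPM in mock DEM, against 160, 177 and 175 CPM in mock vehicle. Neither gene overlapped between the groups, a separation in the lower direction that 16.3% of tested genes showed and 5 of the 9 members. The other 3 without overlap were G6pdx, Pgd and Taldo1, with log2 fold changes of -0.13, -0.21 and -0.22 and adjusted p values of 0.492, 0.274 and 0.188.

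Both calls in mock cells lay near the threshold, and their log2 values stayed between -0.38 and -0.24 for Rpia and between -0.30 and -0.21 for Tkt when 1 library was left out. The Rpia call was lost in 6 of the 12 fits that each left out 1 library (adjusted p = 0.0503 to 0.120), those without T-N2G vehicle replicate 1, mock DEM replicate 1 or 3, or any of the mock vehicle replicates. The Tkt call was lost in 4 (adjusted p = 0.0648 to 0.0863), those without mock DEM replicate 1 or 3 or mock vehicle replicate 2 or 3. Rpe had 45.0, 36.7 and 35.2 CPM in mock DEM, against 55.1, 48.9 and 42.4 CPM in mock vehicle. It stood at -0.32 ± 0.11 and an adjusted p of 0.0730. It was called without mock DEM replicate 1 (adjusted p = 0.0343) or without mock vehicle replicate 3 (0.0446). DESeq2 called Rpe lower as well (adjusted p = 0.0474). With the replicate block 6 members were called lower and none higher, where 21.9% of genes were called lower and 20.9% higher. They were Rpe (adjusted p = 1.76e-04), Tkt (1.58e-04), Rpia (0.00165), Idh1 (0.00491), Pgd (0.0200) and Taldo1 (0.0280). Over all alternatives the adjusted p values of these 6 genes lay between 1.58e-04 and 0.926. Me1 was at 0.02 (interval -0.19 to 0.24), with 58.0, 55.2 and 51.1 CPM in mock DEM, against 57.0, 59.1 and 45.4 CPM in mock vehicle.

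The DEM effect in T-N2G cells minus that in mock cells was itself tested. The difference was called for the same 5 members, all positive, where 0.417% of tested genes had a positive call and 0.016% a negative one. The replicate block left these 5 calls, where 1.82% of genes had a positive one. Adjusted p with the block was 1.11e-09 for Pgd, 1.37e-05 for Me1, 9.65e-06 for G6pdx, 6.67e-05 for Taldo1 and 1.99e-05 for Tkt. Without the block the difference was 1.91 ± 0.17 log2 units for Pgd (adjusted p = 3.02e-04), the 32nd highest of the 12469 genes. It was 1.02 ± 0.14 for Me1 (adjusted p = 0.00649), 0.93 ± 0.17 for G6pdx (0.0311), 0.86 ± 0.15 for Taldo1 (0.0258) and 0.54 ± 0.09 for Tkt (0.0221). Tkt was called in opposite directions by DEM, higher in T-N2G cells and lower in mock cells, and with the block so were Pgd and Taldo1. For the other 4 members the difference lay between -0.05 and 0.19 and none was called (adjusted p = 1.00 each).

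The 12 fits that left out 1 library did not include the replicate block. In all of them the calls for Pgd and Me1 held. That for G6pdx was lost in 10 of them (adjusted p = 0.0539 to 0.128) and kept without T-N2G DEM replicate 2 or T-N2G vehicle replicate 3. That for Taldo1 was lost in 9 (0.0703 to 0.105), and kept without T-N2G DEM replicate 2 or 3 or T-N2G vehicle replicate 3. That for Tkt was lost in 7 (0.0515 to 0.0853), and kept without any 1 of the T-N2G DEM libraries, without mock DEM replicate 2 or without mock vehicle replicate 1. Over these fits the difference was 0.79 to 1.04 log2 units for G6pdx, 0.74 to 0.98 for Taldo1 and 0.48 to 0.58 for Tkt.

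The order of the 9 transcripts by FPKM differed between the groups. In T-N2G DEM, Pgd stood first at 248 ± 35.7 FPKM, followed by Taldo1 at 147 ± 25.3, Tkt at 79.2 ± 4.47, G6pdx at 61.8 ± 11.1 and Me1 at 60.7 ± 4.16. Below them were Pgls at 36.8 ± 4.98, Idh1 at 31.9 ± 10.4, Rpe at 16.04 ± 1.09 and Rpia at 11.2 ± 0.729 FPKM. The neighbours G6pdx and Me1 overlapped between libraries, as did Pgls and Idh1, and the other neighbours did not.

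In T-N2G vehicle the order was Taldo1 (94.2 ± 8.28 FPKM), Pgd (76.4 ± 13.7), Tkt (65.0 ± 0.869), Pgls (41.1 ± 2.62), G6pdx (35.4 ± 4.56), Idh1 (32.0 ± 8.97), Me1 (29.5 ± 1.84), Rpe (18.97 ± 1.22) and Rpia (12.7 ± 0.563). The first 3 overlapped their neighbours, and so did the 4 from Pgls to Me1. In mock DEM it was Taldo1 (61.3 ± 1.80 FPKM), Tkt (46.9 ± 2.56), Pgls (43.1 ± 2.22), Pgd (42.2 ± 1.87), Idh1 (28.6 ± 8.08), G6pdx (23.9 ± 1.25), Me1 (17.7 ± 1.14), Rpe (15.9 ± 2.17) and Rpia (9.95 ± 1.09), with overlaps between Tkt, Pgls and Pgd, between Idh1 and G6pdx and between Me1 and Rpe. In mock vehicle the order was Taldo1 (71.3 ± 2.17 FPKM), Tkt (55.8 ± 2.87), Pgd (48.8 ± 1.79), Pgls (46.6 ± 4.08), Idh1 (32.7 ± 9.80), G6pdx (26.2 ± 0.691), Rpe (19.9 ± 2.62), Me1 (17.4 ± 2.37) and Rpia (12.5 ± 0.423). There Pgd overlapped Pgls, Pgls overlapped Idh1, Idh1 overlapped G6pdx and Rpe overlapped Me1. Rpia was last in every group, and Taldo1 was first in every group other than T-N2G DEM.

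Summed over the 9 genes, the level was 680, 646 and 755 FPKM in the T-N2G DEM libraries, 402, 391 and 423 in T-N2G vehicle, 281, 300.2 and 288 in mock DEM and 322, 345 and 327 in mock vehicle. The 4 groups did not overlap in this sum. Pgd made up 35.7% ± 2.30 of it in T-N2G DEM, 18.8% ± 2.64 in T-N2G vehicle, 14.6% ± 0.657 in mock DEM and 14.8% ± 0.929 in mock vehicle. The ratio of Pgd to Pgls, the enzyme step just before it, was 6.30, 5.30 and 9.18 in T-N2G DEM and 1.93, 1.42 and 2.28 in T-N2G vehicle. In mock DEM it was 0.935, 1.03 and 0.974, and in mock vehicle 1.14, 1.006 and 1.007. The ratio of Pgd to G6pdx averaged 4.03 ± 0.142 in T-N2G DEM, 2.14 ± 0.120 in T-N2G vehicle, 1.77 ± 0.0183 in mock DEM and 1.86 ± 0.0533 in mock vehicle. These sums and ratios are descriptions of RNA levels, with no test, and say nothing of enzyme activity or NADPH.

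**Figure D4:**
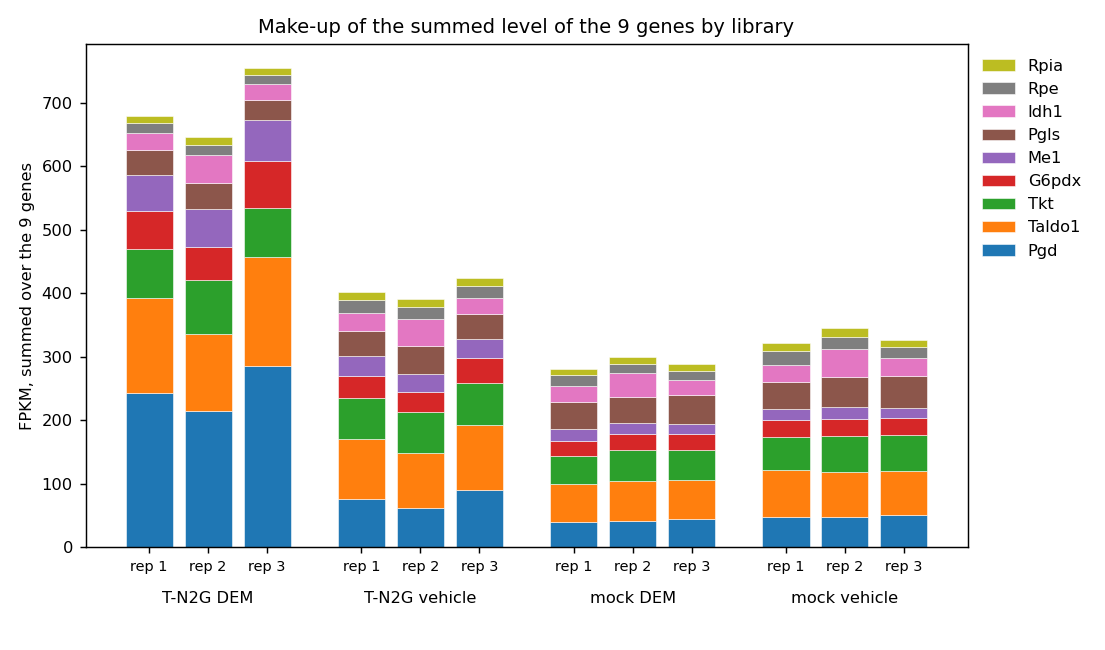
Summed FPKM of the 9 genes in each library (vertical axis, linear, from 0), split by gene. The T-N2G DEM bars reach 646 to 755 FPKM, with Pgd as their largest segment, and the mock DEM bars 281 to 300.2 FPKM, with Taldo1 as theirs.

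The members were also compared with each other and with all tested genes by shape. Each gene's log2 CPM over the 12 libraries was centred on its own mean, and likeness was the root mean square difference between 2 such profiles. G6pdx and Taldo1 were the closest pair of members at 0.089 log2 units, and Pgls and Pgd the farthest at 1.14. The profiles share libraries and depth, so the distances are a description.

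Among other genes, those nearest to Pgd were Esd (0.120), which encodes an esterase that hydrolyses S-formylglutathione, and Gclm (0.121) and Gclc (0.169), the 2 subunits of the enzyme that starts glutathione synthesis, where the median over all genes was 1.03. Nearest to G6pdx were the ferritin light chain gene Ftl1 (0.134), Cgnl1 (0.150) and the catalase gene Cat (0.151), with a median of 0.575. Nearest to Taldo1 were the peroxiredoxin gene Prdx1 (0.095), the carbonyl reductase gene Cbr3 (0.123) and Msx2 (0.129), with a median of 0.523. Nearest to Me1 were Nid1 (0.160), which encodes a basement membrane protein, Cyb5a (0.185), which encodes cytochrome b5, and Bend6 (0.206), with a median of 0.764. Nearest to Tkt, whose profile is the flattest of the 5, were Mocs1 (0.082), Dbn1 (0.086) and Steap2 (0.101), with a median of 0.339.

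**Figure D5:**
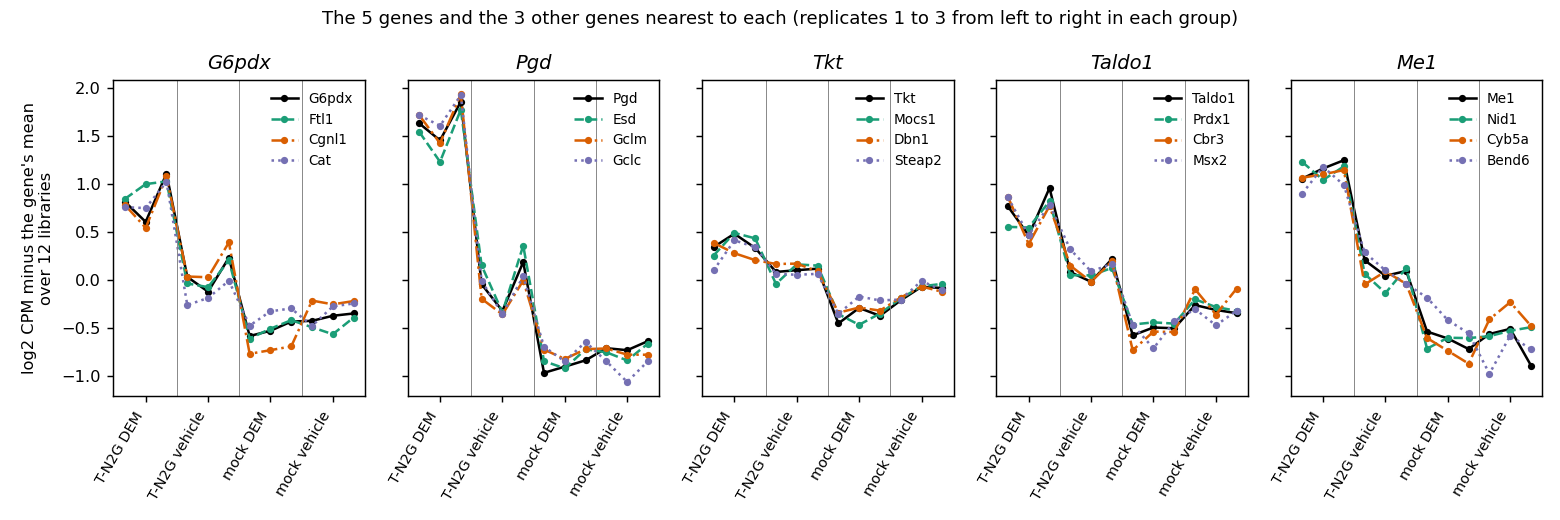
Centred log2 CPM (vertical axis) over the 12 libraries, replicates 1 to 3 from left to right in each group, for each of the 5 genes called in the difference of DEM effects and the 3 other genes nearest to it by root mean square difference. All are highest in T-N2G DEM; the nearest gene lies 0.120 log2 units from Pgd (Esd) and 0.160 from Me1 (Nid1).

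Genes that surround the members in metabolism were counted from lists of the same pathway. Of 12 other genes of pentose and ribose phosphate metabolism 10 were tested (Tktl1 and Tktl2 were not). In DEM, H6pd was the 1 called higher in the T-N2G cells and none was lower, where 2.61% and 1.11% of tested genes were. H6pd, which carries out the first oxidative steps inside the endoplasmic reticulum, averaged 72.8 ± 5.83 CPM in T-N2G DEM and 54.2 ± 3.45 in mock DEM (log2 0.43 ± 0.10, adjusted p = 0.0317, and up to 0.281 over all alternatives). In vehicle edgeR called 0 of the list, with 0 at an unadjusted p under 0.05 and 0 by DESeq2. In the difference of DEM effects it called 0, with 2 at an unadjusted p under 0.05 and 0 by DESeq2, and the block called H6pd (0.38, adjusted p = 0.00966, up to 1.00 over all alternatives). With DEM in T-N2G cells, H6pd (0.38, adjusted p = 0.0222) and Pgm2 (0.36, 0.0483) were higher and Prps2, which makes the activated ribose for nucleotides, was lower (-0.37, 0.00908). With DEM in mock cells, Prps2 (-0.37, adjusted p = 0.0122) and Prpsap2 (-0.26, 0.0485) were lower. Of tested genes, 10.1% were called higher and 7.55% lower with DEM in T-N2G cells, and 7.76% and 6.18% in mock cells. Each of these 5 calls for DEM was lost under at least 1 alternative, with the highest adjusted p of each gene between 0.0838 and 0.361. With the block the calls were 2 higher between the cells in DEM, where 10.3% of tested genes were. They were 3 higher and 3 lower for DEM in T-N2G cells, where 22.8% and 22.2% of genes were, and 1 higher and 3 lower for DEM in mock cells, where 20.9% and 21.9% were. The list's median log2 fold change was -0.05 between the cells in DEM, where that of the 9 members was 0.76.

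Of 12 other genes of NADPH supply, which include the mitochondrial malic enzymes, Idh2, Nnt and the folate dehydrogenases, 11 were tested (Aldh1l1 was not). Between T-N2G and mock cells in DEM edgeR called 0, with 2 higher and 2 lower at an unadjusted p under 0.05, 0 by DESeq2, and 3 higher and 2 lower with the replicate block, where 10.3% and 9.32% of genes were. In vehicle and in the difference of DEM effects it called 0, with 0 at an unadjusted p under 0.05, by DESeq2 or with the block. With DEM over vehicle, Mthfd1 was lower in T-N2G cells (-0.35, adjusted p = 0.0374) and in mock cells (-0.42, 0.0214), and in mock cells Mthfd2 (0.42, 0.00409) and Aldh1l2 (0.51, 0.0489), both of mitochondrial folate metabolism, were higher. Each of these 4 calls was lost under at least 1 alternative, with the highest adjusted p of each between 0.0698 and 0.235. The shares of tested genes called higher and lower were 10.1% and 7.55% in T-N2G cells and 7.76% and 6.18% in mock cells. The block called 2 higher and 4 lower with DEM in T-N2G cells, where 22.8% and 22.2% of genes were, and 3 higher and 4 lower in mock cells, where 20.9% and 21.9% were.

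The 16 enzymes on the list of NADPH users were all tested. In DEM, 5 were higher in the T-N2G cells and none was lower, where 2.61% and 1.11% of tested genes were. With the replicate block 6 were higher and none lower, where 10.3% and 9.32% of genes were. In vehicle 1 was higher and none lower, where 0.305% and 0.00802% of genes were (4 higher with the block, where 3.06% were). Nqo1, a quinone reductase that uses NADH or NADPH, averaged 101 ± 12.2 CPM in T-N2G DEM and 5.75 ± 1.52 in mock DEM (log2 4.13 ± 0.26, adjusted p = 1.82e-06). Its vehicle log2 fold change was 2.01 ± 0.27 (adjusted p = 0.00741, and up to 0.499 over all alternatives). Txnrd1, thioredoxin reductase, averaged 842 ± 151 CPM in T-N2G DEM and 203 ± 9.54 in mock DEM (2.05 ± 0.16, adjusted p = 1.29e-05). Gsr, glutathione reductase, averaged 129 ± 13.9 CPM in T-N2G DEM and 56.9 ± 5.03 in mock DEM (1.18 ± 0.09, adjusted p = 5.62e-06). Blvrb had a log2 fold change of 1.91 ± 0.17 and Cbr3 of 1.29 ± 0.14. In T-N2G cells 6 were higher with DEM and 1 lower, where 10.1% and 7.55% of genes were. With the block 8 were higher and 2 lower there, where 22.8% and 22.2% of genes were. In mock cells edgeR called 0, with 2 higher and 4 lower at an unadjusted p under 0.05 and 1 lower by DESeq2. The block called 4 higher and 5 lower in mock cells, where 20.9% and 21.9% of genes were. In the difference of DEM effects 3 were called, all higher, where 0.417% of genes were (5 with the block, where 1.82% of genes were higher and 0.978% lower). They were Nqo1 (2.12, adjusted p = 0.0311), Txnrd1 (1.51, 0.0120) and Gsr (0.94, 0.00516). Each of the 3 was lost under at least 1 alternative, with adjusted p up to 0.722 for Nqo1, 0.582 for Txnrd1 and 0.137 for Gsr.

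Of 12 genes at the entry of glucose and its branch point, 10 were tested (Fbp1 and Fbp2 were not). Gpi1, which takes glucose-6-phosphate toward glycolysis at the point where G6pdx draws it off, averaged 300.2 ± 17.4 CPM in T-N2G DEM and 211 ± 6.33 in mock DEM (log2 0.51 ± 0.07, adjusted p = 6.84e-04). It was the 1 call of the list between the cells in DEM, where 2.61% of tested genes were higher and 1.11% lower. In vehicle and in the difference of DEM effects edgeR called 0, with 1 each at an unadjusted p under 0.05 and with the block and 0 by DESeq2. With DEM, Aldoa (0.39), Gpi1 (0.26) and Pfkl (0.20) were higher in T-N2G cells (adjusted p = 0.0190, 0.0215 and 0.0274), and Pfkp (0.29, adjusted p = 0.0122) was higher in mock cells. Each of these 4 calls was lost under at least 1 alternative, with the highest adjusted p of each between 0.0793 and 0.156. The shares of tested genes called higher with DEM were 10.1% in T-N2G cells and 7.76% in mock cells. With the block the calls were 2 higher and 1 lower between the cells in DEM, where 10.3% and 9.32% of tested genes were. They were 4 higher and 2 lower for DEM in T-N2G cells, where 22.8% and 22.2% of genes were, and 6 higher and 2 lower for DEM in mock cells, where 20.9% and 21.9% were.

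Of 4 genes of the Y chromosome, 3 were called higher in T-N2G cells in DEM and 1 in vehicle, where 2.61% and 0.305% of tested genes were. Ddx3y averaged 10.2 ± 0.564 CPM in T-N2G DEM, 10.5 ± 1.04 in T-N2G vehicle, 5.71 ± 0.377 in mock DEM and 6.48 ± 0.358 in mock vehicle, higher in T-N2G cells in DEM (adjusted p = 6.12e-04) and in vehicle (0.0154). Eif2s3y and Uty were higher in DEM (adjusted p = 0.0301 and 0.0358) and not called in vehicle (0.169 and 0.627), and Kdm5d was called in neither (0.227 in DEM and 0.584 in vehicle). Xist averaged at most 0.162 CPM in a group. The part of such differences between the populations in the higher levels of the 5 members, of which G6pdx lies on chromosome X, was not tested. For DEM over vehicle Ddx3y was not called (adjusted p = 0.821 in T-N2G and 0.299 in mock cells). The difference of DEM effects sets the populations against each other, and the part of their other differences in it was not tested either.

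The annotation of GRCm38.p6 places other genes over 4 members, Ikbkg over G6pdx, Kansl1l over Rpe, Mir3076 over Tkt and A330041J22Rik over Me1. The strand setting of the counting is not given in the sources used here, so fragments of such pairs may not be told apart. The near-copy G6pd2 had 1 fragment in total over the 12 libraries, in T-N2G vehicle replicate 2.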

How the data were processed

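Poly(A) RNA was sequenced from 12 libraries, 4 groups of 3. The submitters' processing notes name mm9 as the build and Cuffdiff 2.1.1, TopHat2 2.0.8b and bcl2fastq 2.16.0.10 as tools; roles, strand setting and annotation are not given in the sources used here. The deposited table holds, per the file headers, an estimated count of raw fragments for each gene and library, 98.3% of them whole numbers (tolerance 0), and FPKM as the authors scaled it. Table rows were joined to samples by the key in the series description.

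Rounded counts were fitted with edgeR 4.0.16 in R 4.3.3 (filterByExpr with minimum count 10 and minimum total 15, TMM factors 0.980 to 1.028, 1 quasi-likelihood fit of 12 libraries, 5 contrasts, Benjamini-Hochberg over 12469 genes). The coefficient of variation was 0.110. Standard errors were obtained from the log2 fold change and its F statistic (size over root F). Replicates of a group differed beyond sampling noise (chi-square per degree of freedom 10.3 to 27.1). Depth, 18863560 to 23095692 fragments, limits low genes most.

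Replicate numbers come from the sample titles. Deviations from group means correlated with r of 0.361 to 0.631 over the 18 same-number pairs and -0.422 to -0.00363 over the 36 others, so the numbers pair the libraries, and a fit with the number as a block (coefficient of variation 0.0428) is given where it changed a call. Other alternatives were DESeq2 1.42.0, limma 3.58.1 on log2(FPKM + 1) and log2(FPKM + 0.1), library totals without TMM, no filter, only the 2 groups compared, replicates 1 and 2 alone, and each library left out; replicates 1 and 2 alone with the block was added after seeing the data.

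The members, lists and tests were chosen with earlier results of these data known. Named are all 9 members, up to 4 called genes of each other list and comparison by adjusted p, and the 3 genes nearest in profile to each member called in the difference of DEM effects. The Y-linked genes were picked with their values already seen. Promoter windows are from RefSeq (GRCm38.p6), and no protein sequence was used here. The immune marker list is not reported here.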

Additional observations from a re-analysis of the deposited data

Results flagged for a closer look

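For 5 of the 9 genes the effect of DEM differed between T-N2G and mock cells by edgeR's test of the difference itself, with Benjamini-Hochberg adjustment over all genes. The difference of log2 fold changes, T-N2G minus mock, was 1.91 for Pgd, which had 507 ± 71.3 CPM in T-N2G DEM, 156 ± 27.2 in T-N2G vehicle, 86.1 ± 3.899 in mock DEM and 99.6 ± 3.46 in mock vehicle (SD, n = 3). It was 1.02 for Me1, with 188 ± 12.4, 91.2 ± 5.30, 54.8 ± 3.45 and 53.8 ± 7.40 CPM in the same 4 groups. It was 0.93 for G6pdx, with 151 ± 26.7, 86.5 ± 10.7, 58.3 ± 3.10 and 63.9 ± 1.73 CPM. It was 0.86 for Taldo1, with 159.5 ± 26.9, 102 ± 8.45, 66.2 ± 2.04 and 77.1 ± 2.28 CPM. It was 0.54 for Tkt, with 242 ± 14.1, 199 ± 2.36, 143 ± 8.02 and 170.5 ± 9.09 CPM. Without the replicate block, Tkt was the 1 gene of the 5 with a DEM call in each cell population, and those calls had opposite signs. Its call in mock cells was lost in 4 of the 12 fits that left out 1 library. With the block, Pgd and Taldo1 also had calls of opposite signs (adjusted p in mock cells 0.0200 and 0.0280). Groups of 3 libraries are too small for a test of single libraries that stand apart.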

How the results depend on the processing

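The 5 calls between T-N2G and mock cells in DEM (Pgd, Me1, G6pdx, Taldo1, Tkt) held in all 10 alternatives and all 12 fits that left out 1 library. The other counts of called members depend on the fit, and the cause was not tested. The replicate number is part of a fit only where the block is named. Shares of all tested genes called are given above for the fits of all 12 libraries without and with the block. They are not given for the other alternatives, whose counts describe the members alone. In vehicle the count was 1, with 5 under the replicate block, 2 with library totals alone, DESeq2 or no filter on low counts, 0 with replicates 1 and 2 alone (5 with the block added) or only the 2 groups compared, and 1 to 2 with 1 library left out. For DEM in T-N2G cells it was 5, with 4 to 6 over the alternatives and 5 with each library left out; Tkt was lost with replicates 1 and 2 alone. For DEM in mock cells it was 2, with 6 under the replicate block, 3 with DESeq2 and 1 with library totals alone or no filter. The count there was 0 with replicates 1 and 2 alone (6 with the block) or only the 2 groups compared. With 1 library left out it was 0 to 2. For the difference of DEM effects it was 5, with 4 under library totals alone (Tkt at 0.53 was lost, adjusted p = 0.0706). It was 1 for replicates 1 and 2 alone (5 with the block added) and 2 to 5 with 1 library left out. Pgd was called in every alternative. The replicate block changed no call of a member other than those given with the results. Of 441 member values under the alternatives 396 kept direction and side of the threshold, and of 540 with 1 library left out 478 did.

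Signs turned for values that the fit of all 12 libraries without the block did not call. Most lay near 0. Idh1 was at 0.16 between the cells in DEM and at -0.19 for DEM in mock cells, and the block called both. Rpe between the cells in DEM was -0.0024 with library totals alone. With replicates 1 and 2 alone, Idh1 was 0.0086 in vehicle (0.0199 with the block) and 0.0060 for DEM in T-N2G cells, Me1 was -0.0372 for DEM in mock cells (-0.0380 with the block), and Pgls was 0.0031 in the difference (0.0030 with the block). With 1 library left out, values between the cells in DEM ran from -0.0587 to 0.13 for Rpe and -0.14 to 0.41 for Idh1, and in vehicle from -0.0028 to 0.0639 for Rpia, -0.16 to 0.0273 for Rpe and -0.28 to 0.24 for Idh1. For DEM they ran from -0.31 to 0.25 for Idh1 in T-N2G cells, and in mock cells from -0.0877 to 0.10 for Me1 and -0.44 to 0.0829 for Idh1. In the difference they ran from -0.14 to 0.0561 for Pgls, -0.0120 to 0.20 for Rpe and -0.12 to 0.44 for Idh1. With 1 library left out, the group of 2 shares the spread of the others. Every member had at least 13.8 CPM in every library.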
